A study of Homo sapiens with 6 samples.

Results

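The plasminogen activation system was examined as 7 genes, PLAU, PLAUR, PLAT, SERPINE2, SERPINB2, ANXA2 and PLGRKT, in MCF10A-SNAI1 and MCF10A cells. A gene was taken where a probe set carried its symbol and no other, and where several did, the brightest over the 6 arrays was kept. This gave 6 of the 7 genes, each with a single probe set, among 18417 genes named in the same way, while SERPINB2, an inhibitor of urokinase, was not analysed here. The genes were grouped by their known function, with earlier results of these data known.

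MCF10A-SNAI1 cells are MCF10A cells that stably express SNAI1, a zinc finger repressor that induces epithelial-mesenchymal transition (EMT). They carried a SNAI1-Flag plasmid with a CMV enhancer and a chicken beta-actin promoter and had been selected with puromycin in another laboratory. MCF10A cells, an immortalized and untransformed line of human mammary epithelium, were untransfected, so that effects of SNAI1 cannot be told apart from those of the plasmid, the selection or the separate culture history. Total RNA of 3 samples per line, which the study describes as independently reproduced, was hybridised to 6 Affymetrix HuGene arrays.

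Plasminogen is a circulating zymogen that is cut to plasmin, a broad protease of fibrin and pericellular matrix. Urokinase (PLAU) makes this cut at the cell surface while bound to its receptor (PLAUR), and tissue-type plasminogen activator (PLAT) makes it mainly on fibrin. SERPINE2 and SERPINB2 are serpins that trap the activators, while annexin A2 (ANXA2) and PLGRKT, a transmembrane protein with a carboxy-terminal lysine, hold plasminogen at the plasma membrane. In breast cancer, urokinase and its receptor are known for their part in the invasion of tumour cells.

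PLAU had the largest difference between the lines among the 6 measured members, so its annotated promoter windows are printed here, together with that of PLAUR, whose product binds urokinase and whose values overlapped between the lines. Each window runs from 250 bases before to 50 bases after an annotated start in RefSeq (GRCh38.p14). Capitals mark matches to CAGGTG, read on both strands, an E-box sequence that Snail proteins are known to bind. They also mark TGACTCA and TGAGTCA, the AP-1 motif, which read as each other on the opposite strand. Other bases at the middle position of the AP-1 motif were not searched. No match to one motif overlapped a match to the other.
PLAU, first start, chr10:73910360-73910659, plus strand: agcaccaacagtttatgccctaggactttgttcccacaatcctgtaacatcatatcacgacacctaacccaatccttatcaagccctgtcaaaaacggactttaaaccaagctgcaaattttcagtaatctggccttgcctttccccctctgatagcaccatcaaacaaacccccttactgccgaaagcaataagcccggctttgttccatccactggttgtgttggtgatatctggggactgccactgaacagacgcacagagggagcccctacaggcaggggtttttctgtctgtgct
PLAU, second start, chr10:73910882-73911181, plus strand: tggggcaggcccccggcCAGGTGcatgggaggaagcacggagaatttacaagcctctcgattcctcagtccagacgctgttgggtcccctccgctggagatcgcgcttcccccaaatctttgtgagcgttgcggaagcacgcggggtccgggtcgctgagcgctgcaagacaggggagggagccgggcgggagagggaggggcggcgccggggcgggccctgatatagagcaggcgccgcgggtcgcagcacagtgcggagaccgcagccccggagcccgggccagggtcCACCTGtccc
PLAUR, chr19:43670120-43670419, minus strand: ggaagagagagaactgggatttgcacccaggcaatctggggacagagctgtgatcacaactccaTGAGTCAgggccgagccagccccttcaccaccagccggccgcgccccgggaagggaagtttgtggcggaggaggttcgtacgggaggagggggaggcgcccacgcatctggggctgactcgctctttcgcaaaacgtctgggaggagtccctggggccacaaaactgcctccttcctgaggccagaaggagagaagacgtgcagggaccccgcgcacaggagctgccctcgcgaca

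The second PLAU window held 2 matches to CAGGTG, the first of them at base -233 from the start and the other, read as CACCTG, at base 40. The first PLAU window held 0 matches to either motif. Among 35116 windows of 300 bases from all genes, 20.6% held CAGGTG and 3.49% held it at least 2 times. In PLAUR the single match was TGAGTCA at base -186, and the ANXA2 window also had TGAGTCA, at base -127. TGACTCA or TGAGTCA occurred in 4.95% of all windows. Windows of 6 of the 7 genes were read, 8 in all, and PLAT was not among them. Any member window on chromosome 8 was skipped. The windows of SERPINE2, SERPINB2 and PLGRKT held 0 matches to either motif as searched. A match describes letters in the window, and binding was not measured.

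The labels were checked first. SNAI1 lay at 10.50, 10.53 and 10.50 (deposited log2 values) on the MCF10A-SNAI1 arrays, against 5.80, 5.73 and 5.77 on the MCF10A arrays. CDH1, the E-cadherin gene that SNAI1 represses, lay at 5.22, 5.03 and 4.97 on the MCF10A-SNAI1 arrays and at 9.01, 9.13 and 9.0 on the MCF10A arrays. Array medians lay between 6.04 and 6.09, and Pearson correlations across probe sets were 0.995 to 0.996 within a line and 0.977 to 0.978 between the lines. Of 6 measured markers of basal mammary epithelium, 5 were called lower in MCF10A-SNAI1 cells, and the mean level of the list was 8.50 to 8.55 there, against 11.55 to 11.58 in MCF10A cells. Of 11 mesenchymal markers, 5 were called higher, with a list mean of 8.07 to 8.16 in MCF10A-SNAI1 cells and 6.26 to 6.32 in MCF10A cells. The median log2 fold change of that list was 0.40, while DCN was at 8.26 and VIM at 0.06. General epithelial markers were called lower in 3 of 7 cases (5.19 to 5.37 in MCF10A-SNAI1 and 7.12 to 7.17 in MCF10A cells), and luminal mammary markers were called higher in 2 of 9 (7.32 to 7.46 in MCF10A-SNAI1 and 6.92 to 6.95 in MCF10A cells).

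A gene was called where it changed more than 2-fold and limma's p, adjusted by Benjamini-Hochberg over every probe set on the array, lay below 0.01, the cut-offs of the study's methods. Of the 6 measured genes of the plasminogen activation system, 1 was called, PLAU, against a background of 5.64% of all genes, and it was called lower, as were 2.54% of all genes, while 3.1% of all genes were called higher. A further 2 genes, PLAT and SERPINE2, had an adjusted p below 0.01 at a fold change under 2, and 23.2% of all genes passed that p without a fold threshold. The arrays of the 2 lines did not overlap for PLAU, PLAT, SERPINE2 and ANXA2, and 48.3% of all genes showed no overlap. Expression levels of different probe sets are not comparable with each other, so genes were compared by their differences between the lines. A log2 fold change is given as MCF10A-SNAI1 minus MCF10A throughout, and 3 arrays per line limited the precision.

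PLAU, the urokinase gene, fell 18.1-fold in MCF10A-SNAI1 cells. Its log2 values were 6.07, 5.65 and 6.10 in MCF10A-SNAI1 cells, against 10.10, 10.26 and 10.01 in MCF10A cells. The highest MCF10A-SNAI1 array thus lay 3.91 below the lowest MCF10A array, while the arrays of a line spanned 0.44 in MCF10A-SNAI1 and 0.25 in MCF10A. PLAU averaged 5.94 ± 0.25 in MCF10A-SNAI1 cells and 10.12 ± 0.13 in MCF10A cells (SD, n = 3 arrays each). The log2 fold change was -4.18 (standard error 0.13, 95% interval -4.50 to -3.86, adjusted p = 2.15e-06 from limma), and the interval of the fold was 14.6 to 22.6. An exact two-sided permutation test gave p = 0.1, the smallest that 3 arrays against 3 allow. A larger absolute log2 fold change was found in 0.212% of all genes. The MCF10A-SNAI1 mean lay under the median of all values, 6.05, and the table holds no detection calls, so the fold is a minimum if that level is background.

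**Figure D1:**
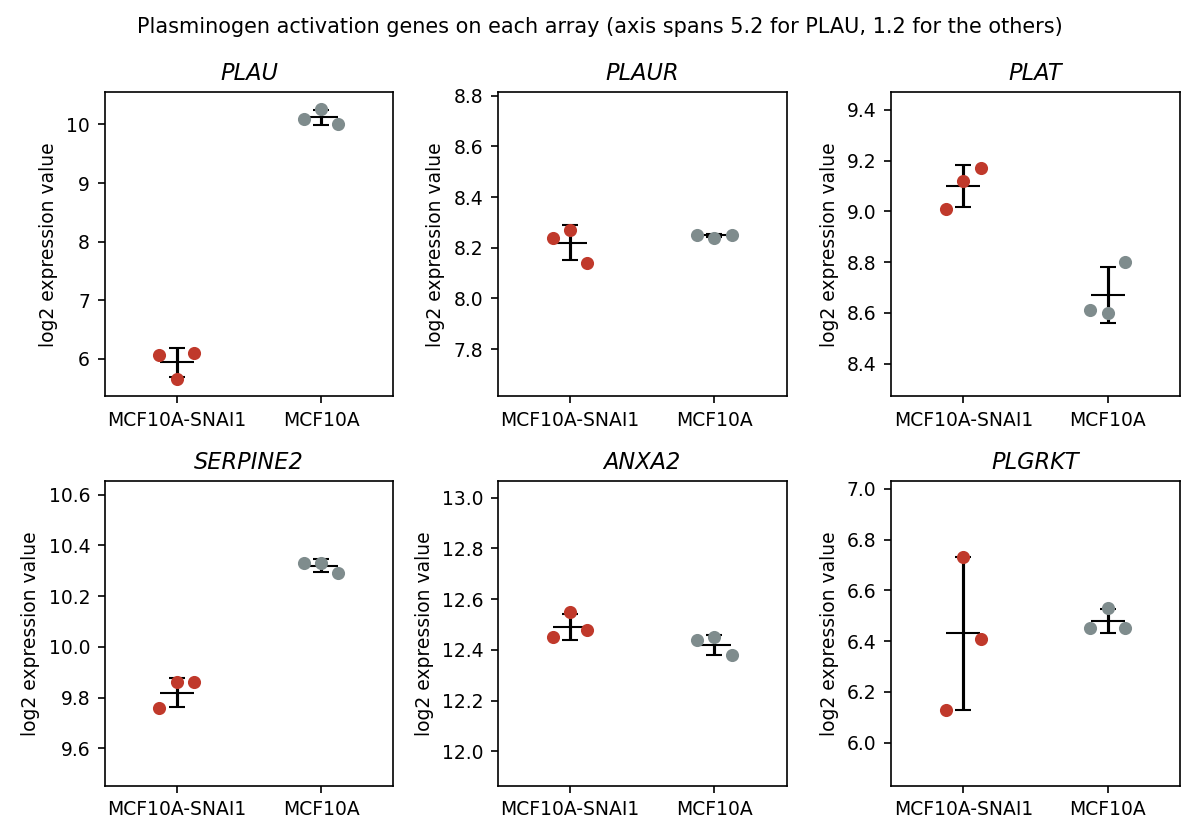
Log2 expression values of the 6 measured plasminogen activation genes on each array, with MCF10A-SNAI1 in red and MCF10A in grey, dots for single arrays and black bars for the mean with its SD (n = 3). PLAU lies at 5.65 to 6.10 in MCF10A-SNAI1 and at 10.01 to 10.26 in MCF10A cells, while the points of PLAUR and PLGRKT overlap between the lines.

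The genes whose profiles lay nearest to that of PLAU were S100A2, CDH1 and IL1B, by Euclidean distance over the 6 arrays after each gene's own mean had been subtracted. The distances were 0.409, 0.445 and 0.48, and the log2 fold changes of these genes were -4.24 for S100A2, -3.97 for CDH1 and -3.83 for IL1B. Values were not scaled, so this distance mostly picks genes with a log2 fold change close to that of PLAU. Shared regulation was not tested. S100A2 encodes a calcium-binding protein of basal epithelium and IL1B a ligand of the interleukin 1 receptor. In total RNA of a culture, fewer cells that express a gene and less RNA per cell cannot be told apart. The part of the lower basal markers in the PLAU difference was not tested.

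PLAUR, the urokinase receptor gene, was measured at nearly the same level in both lines. Its log2 values were 8.24, 8.27 and 8.14 in MCF10A-SNAI1 cells and 8.25, 8.24 and 8.25 in MCF10A cells. The MCF10A arrays lay inside the range of the MCF10A-SNAI1 arrays. The log2 fold change was -0.03 (standard error 0.061, adjusted p = 0.782 from limma), and its 95% interval of -0.18 to 0.11 did not reach a 2-fold change in either direction. Without MCF10A-SNAI1 replicate 3 the value was 0.004. Monocytes and macrophages are known to express PLAUR, and of 10 measured markers of these cells 0 were called by limma or by the methods' t-test, while 4 had an unadjusted p below 0.05, as did 42.3% of all genes (list mean 5.41 to 5.58 in MCF10A-SNAI1 and 5.32 to 5.35 in MCF10A cells). The adjusted p lay below 0.01 for 1 of them, CD68, which encodes a lysosomal protein (adjusted p = 8.86e-05 from limma). CD68 averaged 9.13 in MCF10A-SNAI1 and 8.15 in MCF10A cells, just under 2-fold (log2 fold change 0.99). Both lines are cultures of mammary epithelial origin, so this list cannot show a cell source of PLAUR.

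**Figure D2:**
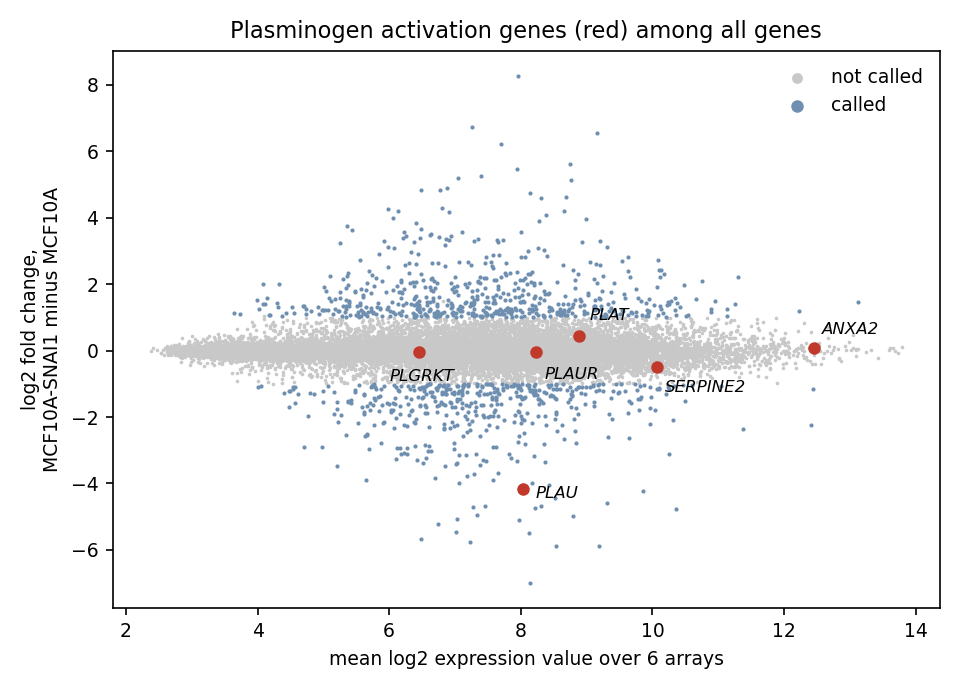
Log2 fold change, MCF10A-SNAI1 minus MCF10A, against the mean log2 expression value over 6 arrays for 18417 genes, with called genes in blue, other genes in light grey and the 6 plasminogen activation genes in red. PLAU lies at -4.18, and the other 5 genes lie between -0.49 and 0.43.

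PLAT, the gene of tissue-type plasminogen activator, was slightly higher in MCF10A-SNAI1 cells and was not called. Its log2 values were 9.01, 9.12 and 9.17 in MCF10A-SNAI1 cells, against 8.61, 8.6 and 8.80 in MCF10A cells. All MCF10A-SNAI1 arrays lay above all MCF10A arrays, by at least 0.21, close to the span of the arrays of a line (0.16 in MCF10A-SNAI1 and 0.20 in MCF10A). The log2 fold change was 0.43 (standard error 0.081, 95% interval 0.23 to 0.62, adjusted p = 0.00813 from limma), a 1.34-fold difference. This adjusted p stayed below 0.01 in 7 of 15 alternative settings and reached 0.0348 with the methods' t-test. The setting without a fold threshold, counted among the 7, repeats the main p. When single arrays were left out, the adjusted p from limma was below 0.01 only without MCF10A replicate 3 (0.00816). It reached 0.0344 without MCF10A-SNAI1 replicate 3. Endothelial cells are a known source of PLAT, but both lines are cultures of mammary epithelial origin, so endothelial markers cannot show its source here. Of 9 measured endothelial markers 0 were called by limma, 0 had an unadjusted p below 0.05 and 0 were called by the methods' t-test, 8 lay under the median of all values in both lines, and their mean level was 4.94 to 5.04 in MCF10A-SNAI1 cells and 4.92 to 5.02 in MCF10A cells.

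SERPINE2, or protease nexin 1, a serpin that inhibits thrombin and both plasminogen activators, was lower in MCF10A-SNAI1 cells at less than 2-fold. Its log2 values were 9.76, 9.86 and 9.86 in MCF10A-SNAI1 cells, against 10.33, 10.33 and 10.29 in MCF10A cells. The lines were separated by 0.43, more than the 0.10 that the MCF10A-SNAI1 arrays and the 0.04 that the MCF10A arrays spanned. The log2 fold change was -0.49 (standard error 0.060, 95% interval -0.63 to -0.35, adjusted p = 0.00104 from limma), a 1.41-fold difference. The adjusted p was at most 0.0077 over 15 alternative settings. SERPINE2 thus differed beyond the spread between arrays but did not meet the fold threshold.

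ANXA2 and PLGRKT, which bind plasminogen at the membrane, were not called. ANXA2 lay at 12.45, 12.55 and 12.48 in MCF10A-SNAI1 cells and at 12.44, 12.45 and 12.38 in MCF10A cells, so that the lowest array of MCF10A-SNAI1 and the highest of MCF10A nearly touched. Its log2 fold change was 0.07 (95% interval -0.07 to 0.21, adjusted p = 0.519 from limma). Another probe set, which lists SNU13 beside ANXA2, averaged 8.85 in MCF10A-SNAI1 cells and 9.51 in MCF10A cells and cannot be assigned to either gene. ANXA2 has near-identical pseudogene copies, so its own probe set may include their signal. PLGRKT lay at 6.13, 6.73 and 6.41 in MCF10A-SNAI1 cells and at 6.45, 6.53 and 6.45 in MCF10A cells. The 3 MCF10A-SNAI1 arrays spanned 0.60, against 0.08 for MCF10A, and enclosed all MCF10A arrays. The log2 fold change of PLGRKT was -0.05 (95% interval -0.40 to 0.29, adjusted p = 0.863 from limma), and it was 0.095 without MCF10A-SNAI1 replicate 1.

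**Figure D3:**
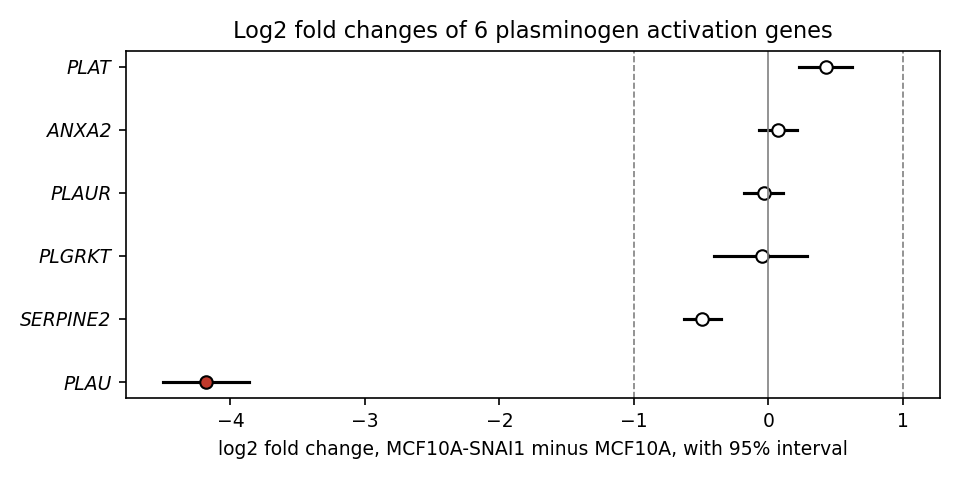
Log2 fold changes, MCF10A-SNAI1 minus MCF10A, of the 6 measured genes, with 95% intervals from limma as lines. The filled point marks the called gene, open points the genes not called, and dashed lines a log2 fold change of -1 and 1. PLAU lies at -4.18, and the intervals of the other 5 genes lie inside the dashed lines.

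From highest to lowest log2 fold change, the order was PLAT, ANXA2, PLAUR, PLGRKT, SERPINE2 and PLAU. The fold change of SERPINE2 exceeded that of PLAU by 3.69 on the log2 scale (95% interval 3.21 to 4.17). PLAT exceeded ANXA2 by 0.36 (95% interval 0.09 to 0.63) and PLGRKT exceeded SERPINE2 by 0.44 (95% interval 0.02 to 0.85). Between ANXA2 and PLAUR, at 0.10, and between PLAUR and PLGRKT, at 0.02, the intervals of -0.02 to 0.23 and -0.46 to 0.50 included 0. Of these 5 differences between neighbours, 4 had an exact two-sided permutation p of 0.1, the smallest possible (0.125 after Benjamini-Hochberg adjustment over the 5), and that between PLAUR and PLGRKT had an exact p = 0.9.

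Around these genes, 5 lists of the same pathway held 60 measured genes, of which 6 were called higher and 2 lower. That was 13.3%, beside 5.64% of all genes, and the median log2 fold change was -0.012 for the 60 genes and -0.013 for all genes. Of 9 genes listed for plasminogen, apolipoprotein(a) (LPA) and the enzymes that start plasminogen activation, 1 was called lower and 0 higher. This was ST14, encoding matriptase, a membrane protease that activates pro-urokinase, at 5.73, 5.76 and 5.37 in MCF10A-SNAI1 cells against 9.55, 9.46 and 9.57 in MCF10A cells (log2 fold change -3.90, adjusted p = 1.41e-06 from limma). The arrays of the 2 lines lay far apart for ST14, whose MCF10A-SNAI1 mean of 5.62 was under the median of all values, so that its fold is also a minimum if that level is background. CTSB, the gene of cathepsin B, which can also cut pro-urokinase, was at 0.55 on the log2 scale (adjusted p = 0.00068 from limma) and stayed under 2-fold. PLG, plasminogen itself, which is made mainly in liver, lay at 4.42, 4.27 and 4.38 in MCF10A-SNAI1 cells and at 4.53, 4.25 and 4.34 in MCF10A cells, under the median of all values on every array.

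Of 21 measured partners of the urokinase receptor and receptors that clear urokinase, 3 were called higher and 1 lower. LRP1, the endocytic receptor that takes up urokinase bound to inhibitor and receptor, lay at 9.36, 9.42 and 9.47 in MCF10A-SNAI1 cells, against 6.61, 6.63 and 6.58 in MCF10A cells. Its arrays did not overlap, and the log2 fold change was 2.81 (standard error 0.060, adjusted p = 4.52e-07 from limma). VLDLR, a receptor of the same family, rose at 1.79 (adjusted p = 1.81e-05 from limma), and the fibronectin receptor chain ITGA5 at 1.5 (adjusted p = 5.60e-06). SORL1, a sorting receptor that also binds urokinase complexes, fell at -1.08 (adjusted p = 0.00119 from limma). Its MCF10A-SNAI1 mean of 5.2 lay under the median of all values. The SORL1 value was -0.94, less than 2-fold, when MCF10A-SNAI1 replicate 1 was left out. With the methods' t-test SORL1 had an adjusted p of 0.02. LRPAP1, the chaperone of these receptors, was at 0.10 (adjusted p = 0.435 from limma) and was not called. The integrin chain ITGB1 lay at 0.17 (adjusted p = 0.0969) and EGFR, a signalling partner of the receptor, at -0.13 (adjusted p = 0.219). Of the 17 uncalled genes of this list, 5 had an adjusted p below 0.01 from limma at less than 2-fold. FPR1 at 0.84, SRPX2 at 0.79 and ITGB3 at 0.70 were higher, and ITGB2 at -0.62 and LYPD3 at -0.54 were lower. Without a fold threshold, 23.2% of all genes passed that p.

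**Figure D4:**
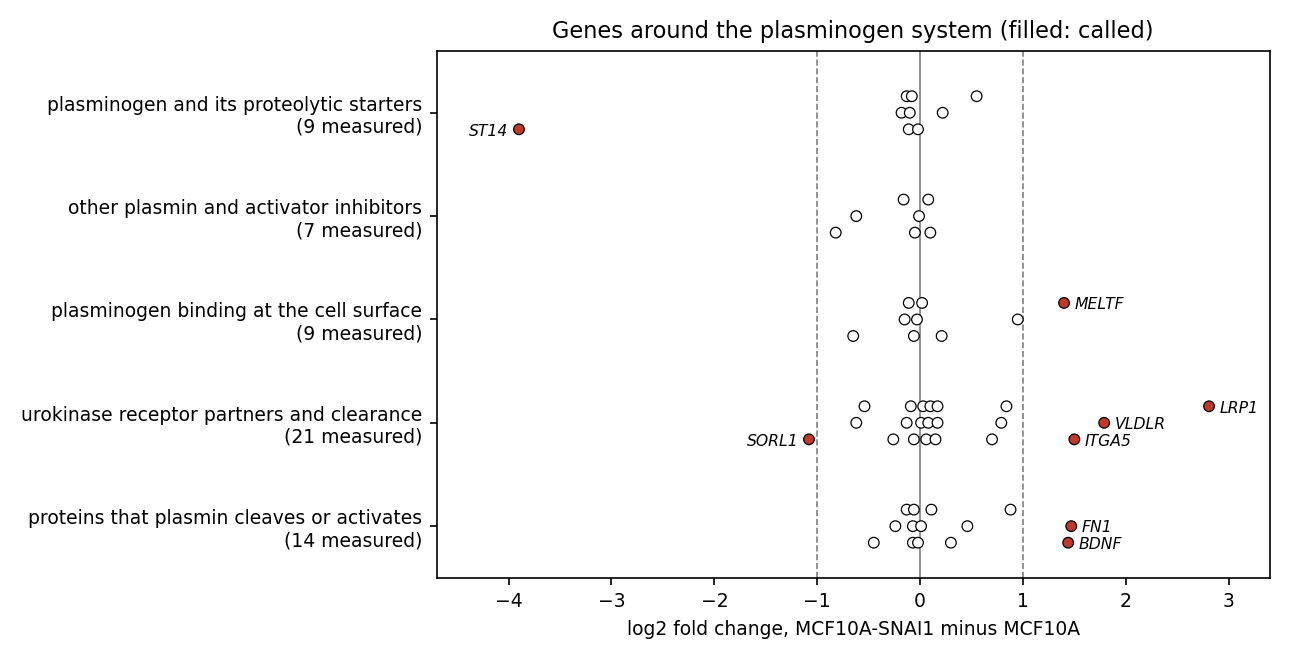
Log2 fold changes, MCF10A-SNAI1 minus MCF10A, of the measured genes in 5 lists around the plasminogen system, a point per gene, spread vertically for visibility. Filled points are called genes and are named, and dashed lines mark a log2 fold change of -1 and 1. LRP1 lies at 2.81 and ST14 at -3.90, and 0 of 7 other inhibitors are called.

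Of 9 measured genes for plasminogen binding at the cell surface, 1 was called higher and 0 lower. MELTF, the gene of melanotransferrin, rose at a log2 fold change of 1.40 (adjusted p = 3.57e-05 from limma), with 9.45, 9.38 and 9.41 in MCF10A-SNAI1 cells against 7.89, 8.0 and 8.16 in MCF10A cells. S100A10, which forms a complex with annexin A2 and binds plasminogen, lay at 13.27, 13.38 and 13.36 in MCF10A-SNAI1 cells and at 13.32, 13.31 and 13.32 in MCF10A cells, and the arrays overlapped. ENO1, an enolase that also serves as a plasminogen receptor, was at -0.03 (adjusted p = 0.826 from limma). KRT8 was at 0.95 (adjusted p = 6.22e-05) and its partner keratin KRT18 at -0.65 (adjusted p = 0.00106), both under 2-fold.

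Of 7 other measured inhibitors of plasmin or its activators, 0 were called by limma or by the methods' t-test, whereas 2 had an unadjusted p below 0.05 and the same 2 also had an adjusted p below 0.01 at less than 2-fold. These were SERPINB8 at -0.82 (adjusted p = 0.000293) and SERPINI1, neuroserpin, at -0.62 (adjusted p = 0.00082 from limma). SERPINF2, the main plasmin inhibitor of blood, was at -0.05 (adjusted p = 0.727), and 6 of the 7 genes lay under the median of all values in both lines. Of 14 measured genes whose proteins plasmin cleaves or activates, 2 were called higher and 0 lower. FN1, fibronectin, rose at 1.47 (adjusted p = 9.07e-06 from limma) and the neurotrophin BDNF at 1.44 (adjusted p = 0.000197). BDNF averaged 6.11 in MCF10A-SNAI1 and 4.67 in MCF10A cells, the MCF10A level being under the median of all values, and its probe set was not among those above the median over the 6 arrays. The latent growth factor TGFB1 stayed under 2-fold at 0.88 (adjusted p = 6.72e-05 from limma). The fibrinogen chains FGA, FGB and FGG lay at -0.06, 0.11 and 0.01 and were not called. The study's own displays of changed genes name ITGA5, FN1 and BDNF. All calls here come from the study's own 6 arrays, so none of them is independent of it.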

How the data were processed

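Total RNA of 3 MCF10A-SNAI1 and 3 MCF10A samples was measured on Affymetrix HuGene-1_0-st-v1 arrays. The table deposited by the authors held log2 values of 33297 probe sets. GeneSpring with GC RMA normalization is named in the methods, whereas GCOS, Affymetrix Expression Console 1.1 and MAS5 are named in the submitters' processing notes, and which of them produced these values is not stated. Background correction was not varied, and it affects fold changes of dim genes most.

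The values were used as deposited. Of the probe sets, 19460 had 1 gene symbol, 1754 several and 12083 were unnamed in the annotation used, which gave 18417 genes. Lines were compared in R 4.3.3 with limma 3.58.1, using moderated variances (empirical Bayes) and p-values adjusted by Benjamini-Hochberg across the 33297 probe sets. P-values measure the spread between these arrays. Intervals for differences between genes came from a linear model of their difference on each array. On simulated data limma called 0% of 67 probe sets changed by 0.5 on the log2 scale, which is under the fold threshold, 95.5% of 67 changed by 1.5 and 100% of 66 changed by 3. The simulated noise was normal, independent between arrays and of the spread fitted to these arrays. It held no effect of culture or batch shared by the arrays of a line.

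Genes named were the 7 members, SNAI1 and CDH1 as checks, up to 4 called genes per direction of each list and the 3 profiles nearest to a called member. Uncalled genes of the lists that are given with values were chosen after their values were seen. Members and lists were chosen with earlier results of these data known. Promoter sequences came from RefSeq (GRCh38.p14). Alternatives were quantile normalization, centring of arrays, leaving out single arrays, a block for the replicate number, removal of dim probe sets, the methods' t-test, limma with trended and robust variances, calls by p alone and means over probe sets of one gene. A log2 transformation was not needed and was not run. Figures were drawn with matplotlib 3.10.9.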

Additional observations from a re-analysis of the deposited data

How the results depend on the processing

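PLAU was called lower under all 15 alternatives, at log2 fold changes of -4.259 to -4.038. Leaving out each array in turn gave 1 called member each time, and for all genes 1027 to 1054 calls, against 1038. Without a fold threshold, 4279 genes and 3 of the 6 members passed, with PLAT at 0.427 and SERPINE2 at -0.492 joining PLAU. In the same setting the 5 lists had 2 (activation starters), 2 (other inhibitors), 3 (surface binding), 9 (receptor partners and clearance) and 5 (plasmin substrates) genes past the threshold. With probe sets above the median only, the substrate list had 1 called gene of 5 measured, since dimmer genes, BDNF among them, were left out. SORL1 was left out there too, and the receptor list had 3 genes called higher and 0 lower of 13 measured. Signs of uncalled differences near 0 turned for PLAUR, which ranged from -0.06 to 0.004 when each array was left out, with 0.004 without MCF10A-SNAI1 replicate 3, and for PLGRKT, which ranged from -0.207 to 0.095, with 0.095 without MCF10A-SNAI1 replicate 1. The cause was not tested.

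The labels number the arrays 1 to 3 in both lines but tie no number to a shared batch, so the numbers were not taken as pairs. Deviations from the line means correlated at 0.12, 0.12 and -0.01 for arrays of the same number. Of 3 MCF10A-SNAI1 arrays, 2 correlated best with the MCF10A array of their own number. With so few arrays these values cannot settle whether a number marks a shared batch. With the replicate block, 1028 genes were called in place of 1038, and PLAU kept its call (adjusted p = 0.000289 from limma).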
